A study of Mus musculus with 4 samples.

Results

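Alb, Fga, Fgb, Fgg, Tat, Mat1a, Apoa1 and Ttr are genes that hepatocytes, the main cells of the liver, transcribe at high level and that are not expected in fat. Together they serve here as a measure of liver RNA in libraries of mouse brown adipose tissue, a fat that makes heat. The 8 genes were chosen by name as hepatocyte genes after their normalised counts in these 4 libraries, replicate against replicate and fraction against fraction, had been seen. All 8 were among the 17259 genes of the deposited table, and their values stand as a description that carries no test. RNA had been sequenced from brown adipose tissue of WT (wild-type) mice in 2 groups of 2 libraries, isolated mitochondria and the tissue minus mitochondria, called the non-mitochondrial fraction below. Titles in the second group say total where the treatment label excludes mitochondria, and the study also describes their RNA as coming from total lysates, so that these libraries may hold whole tissue and the name non-mitochondrial follows the treatment label alone. The study compared the fractions to find RNAs that accompany mitochondria. Nothing in the labels says that the 2 replicates of a group came from separate animals, so that the spread between them may be technical. The isolation of mitochondria followed a published protocol, which the study describes for hearts. Before RNA extraction the isolated mitochondria were treated with digitonin and RNase A. The mitochondrial samples were fragmented for a time set to the size of their RNA. No RNase step and no fragmentation time are given for the other group, so that these steps and the fraction cannot be told apart.

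Hepatocytes secrete most of the proteins of blood plasma. Albumin (Alb) carries fatty acids and hormones and sets the osmotic pressure of plasma, transthyretin (Ttr) carries thyroid hormone and the retinol-binding protein, and apolipoprotein A-I (Apoa1) is the main protein of high-density lipoprotein. The alpha, beta and gamma chains of fibrinogen (Fga, Fgb, Fgg) assemble in the hepatocyte into the precursor of the fibrin clot. Tyrosine aminotransferase (Tat) and methionine adenosyltransferase 1A (Mat1a) are not secreted and work inside the hepatocyte, the first in tyrosine breakdown and the second in making S-adenosylmethionine. Brown adipocytes are known for Ucp1, the uncoupling protein that lets mitochondria release heat.

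All values are normalised counts, gene counts that the authors divided by a size factor per library and rounded. One recovered read was worth 8.32 units in mitochondria replicate 1 and 6.9 units in mitochondria replicate 2, whereas the non-mitochondrial libraries gave no such step and their reads are unknown. The mitochondria libraries held 26288871 and 24910434 reads, of which genes of the mitochondrial genome took 95.3% and 95.5%. Named protein-coding genes of the nucleus, 12611 in all, were left with 45662 and 55686 reads. They summed to 379933 and 385175 units in mitochondria and 640048 and 628833 units in the other fraction, and shares below are shares of these sums. Intervals are 95% intervals for counting error only, Wilson for shares and exact binomial for ratios. A count of 3 reads, taken as the floor, equals 25.0 and 20.7 units in mitochondria replicates 1 and 2. The tissue label was checked with 14 genes of brown adipocytes, all of them listed, and Ucp1 was read at 1290 and 3554 in mitochondria and at 4819 and 4185 in the non-mitochondrial fraction.

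The 8 genes lie on 6 chromosomes of the mouse build GRCm38, and each annotated span is given here from first to last base. The 3 fibrinogen genes are neighbours, with Fgg (ENSMUSG00000033860) at chr3:83007724-83015049 on the plus strand, Fga (ENSMUSG00000028001) at chr3:83026076-83033627 on the plus strand and Fgb (ENSMUSG00000033831) at chr3:83040141-83049863 on the minus strand. Fgg overlaps the predicted gene Gm30097 on the other strand, and the use of strand in counting is not given in the sources used here. Alb (ENSMUSG00000029368) lies at chr5:90460897-90476602 and Tat (ENSMUSG00000001670) at chr8:109990437-109999803, both on the plus strand. Apoa1 (ENSMUSG00000032083) lies at chr9:46228580-46230466 and Mat1a (ENSMUSG00000037798) at chr14:41105035-41124412, also on the plus strand, and the position of Ttr is given with its values. All 8 are protein-coding, counted over exons, and 7 of them overlap no other annotated gene.

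The promoters of Alb, Fgb and Fga are shown because these genes come from 2 chromosomes and shared the order of the libraries, and because each holds a short motif of HNF1, a transcription factor of hepatocytes. The windows are RefSeq sequence of GRCm38.p6 in the direction of transcription and end before the RefSeq start, Alb at chr5:90460750-90460869 on the plus strand, Fgb at chr3:83049864-83049983 on the minus strand and Fga at chr3:83026098-83026127 on the plus strand. The Fga window lies inside the longer Fga span of the deposited table. Capitals mark GTTAAT or its reverse complement ATTAAC, and in Alb also CCAAT or its reverse complement ATTGG.
Alb: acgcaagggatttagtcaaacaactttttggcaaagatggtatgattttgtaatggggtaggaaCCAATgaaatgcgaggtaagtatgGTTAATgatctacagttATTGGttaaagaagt
Fgb: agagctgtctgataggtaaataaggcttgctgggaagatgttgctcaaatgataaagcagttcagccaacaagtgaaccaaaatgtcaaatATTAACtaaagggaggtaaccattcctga
Fga: ccaagggtgatgATTAACctcctgccggtt
The HNF1 motif began 32 bases before the start in Alb, 29 in Fgb and 43 in Fga. RefSeq promoters, each 250 bases before to 50 bases after a start, matched 6 of the 8 genes, all but Mat1a and Ttr, and 3 of these 6 held the HNF1 motif on either strand. Of 10814 promoters of the table, 463 (4.28%) held it, as did 16 of 60 promoters of other hepatocyte genes (26.7%). These 60 were matched from all 78 names on the hepatocyte lists described below, whether or not a gene was in the table. CCAAT stood in 2 of the 6 (Alb and Tat), in 38.4% of all promoters and in 50% of the other hepatocyte promoters. TATAAA stood in 0 of the 6, in 7.75% of all promoters and in 35% of the other hepatocyte promoters. A match is a run of letters and was not tested for binding.

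The 8 genes shared 1 order of libraries, with mitochondria replicate 1 highest, mitochondria replicate 2 next, non-mitochondrial replicate 1 below it and non-mitochondrial replicate 2 at or near 0. The 1 exception was Tat, level at 1 in the last 2 libraries, and for Fgg and Tat the value in mitochondria replicate 2 is under the floor of 3 reads. Their normalised counts summed to 9004, 759, 157 and 8 in that order. As shares of the named nuclear signal the sums came to 2.37% (2.23 to 2.51, 1082 reads) and 0.197% in mitochondria, the latter 0.198% by reads (0.164 to 0.238, 110 reads), and to 0.0245% and 0.00127% in the non-mitochondrial fraction. Mitochondria replicate 1 thus held 11.9 times as much of this signal as replicate 2 (9.74 to 14.6), and non-mitochondrial replicate 1 held 19.6 times as much as its replicate 2. The last ratio rests on a sum of 8 units and has no counting interval, since the reads behind it are unknown. In material of mixed cells, fewer cells of a type and less RNA per cell cannot be told apart.

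**Figure D1:**
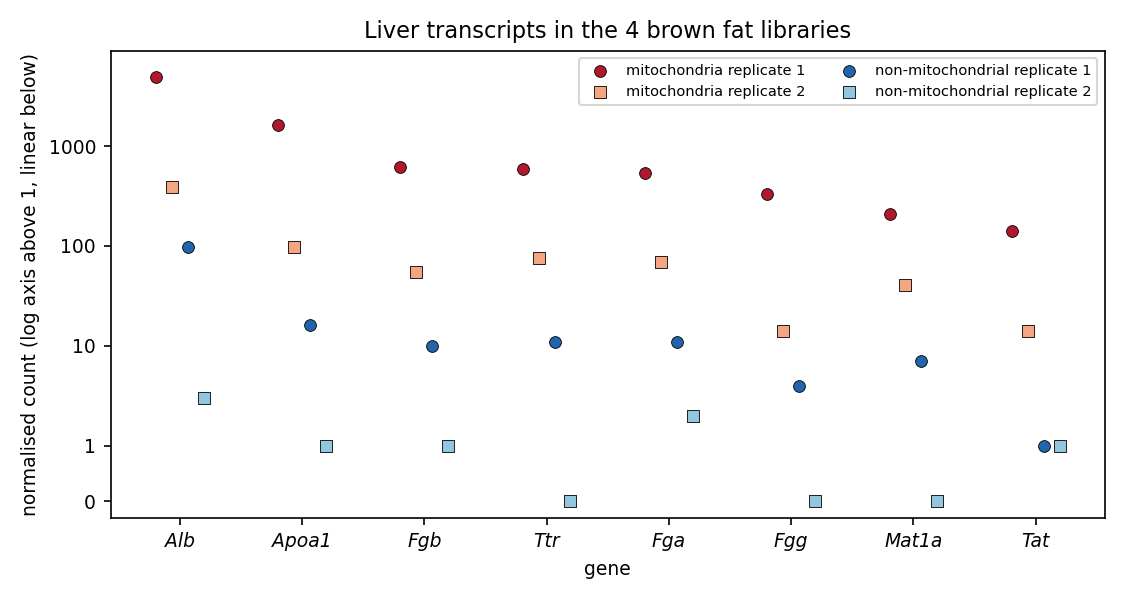
Normalised counts of the 8 liver transcripts (log axis above 1, linear below) in the 4 libraries, 1 symbol per library and gene, with genes in order of their level in mitochondria replicate 1. For every gene mitochondria replicate 1 is the highest of the 4 and both mitochondria libraries are plotted above both others, for Fgg and Tat on 2 reads in mitochondria replicate 2, from Alb at 4943 to Tat at 141 in mitochondria replicate 1.

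Among the plasma carriers, Alb was read at 4943 and 393 in mitochondria and at 97 and 3 in the non-mitochondrial fraction. The means were 2668 ± 3217 (SD, n = 2) and 50 ± 66.5 (SD, n = 2), so that the spread between replicates exceeded the mean in both fractions. In reads, Alb had 594 in mitochondria replicate 1 and 57 in replicate 2, a ratio of normalised counts of 12.6 (9.56 to 16.8). Ttr (ENSMUSG00000061808, chr18:20665280-20674321, plus strand) was read at 591 and 76 in mitochondria and at 11 and 0 in the non-mitochondrial fraction, with a replicate ratio in mitochondria of 7.78 (4.10 to 16.3). The intervals of both carriers overlap, and for both the libraries stood in the same order.

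Apoa1, the lipoprotein gene, was read at 1639 and 97 in mitochondria and at 16 and 1 in the non-mitochondrial fraction, from 197 and 14 reads in mitochondria. Its replicate ratio was 16.9 (9.88 to 31.6) in mitochondria and 16.0 in the other fraction. The ratio in the other fraction divides by a rounded value of 1 and is imprecise.

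The fibrinogen chains had similar profiles. Fga was read at 533 and 69 in mitochondria and at 11 and 2 in the non-mitochondrial fraction. Fgb was read at 616 and 55 in mitochondria and at 10 and 1 in the non-mitochondrial fraction. Fgg was read at 333 and 14 in mitochondria and at 4 and 0 in the non-mitochondrial fraction. All 3 chains were highest in mitochondria replicate 1 and lowest in non-mitochondrial replicate 2. The replicate ratios in mitochondria were 7.72 (3.94 to 16.9) for Fga, 11.2 (5.38 to 26.8) for Fgb and 23.8 (6.25 to 206) for Fgg, whose 14 units in replicate 2 are 2 reads. Per kb of exon, Fgb stood at 0.913 of Fga and Fgg at 0.898 of Fga in mitochondria replicate 1, where the 3 chains had 64, 74 and 40 reads (Fga, Fgb, Fgg). Counting intervals of these ratios ran from 0.645 to 1.30 and from 0.590 to 1.36, and both hold 1. In mitochondria replicate 2 these ratios of levels per kb were 0.630 and 0.292, from 10, 8 and 2 reads, and in non-mitochondrial replicate 1 they were 0.718 and 0.523. The chains were thus close to each other per kb in the library with the most reads, and the ratios in the other libraries rest on few reads. Exon length here is all annotated exon bases of a gene, merged over its transcripts, and can exceed its mRNA. Levels per kb therefore depend on the annotation, which the counting intervals do not cover.

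Both enzymes were the lowest of the 8 genes per kb in mitochondria replicate 1. Mat1a was read at 208 and 41 in mitochondria and at 7 and 0 in the non-mitochondrial fraction, with 25 and 6 reads in mitochondria and a ratio of 5.07 (2.01 to 15), the lowest of the 8. Tat was read at 141 and 14 in mitochondria and at 1 in each library of the non-mitochondrial fraction. It had 17 and 2 reads in mitochondria, a ratio of 10.1 (2.43 to 91.5). Tat is the 1 gene of the 8 whose replicates were level in the non-mitochondrial fraction.

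Compared as levels per kb of exon, the 8 genes kept nearly the same order in each library that held them. In mitochondria replicate 1 the levels per kb were 2111 for Alb, 1326 for Apoa1, 498 for Ttr, 177 for Fga, 162 for Fgb and 159 for Fgg. Mat1a and Tat followed with 60.0 and 58.6 per kb. In mitochondria replicate 2 they were 168 for Alb, 78.5 for Apoa1, 64.1 for Ttr, 22.9 for Fga and 14.4 for Fgb, and Mat1a, Fgg and Tat followed with 11.8, 6.69 and 5.82. In non-mitochondrial replicate 1 they were 41.4 for Alb, 12.9 for Apoa1, 9.27 for Ttr, 3.65 for Fga and 2.62 for Fgb, with Mat1a, Fgg and Tat at 2.02, 1.91 and 0.416. The first 5 places were the same in all 3 libraries, and Mat1a and Fgg changed places. Neighbours in this order that did not differ beyond counting error in mitochondria replicate 1 were the 3 fibrinogen genes, and Mat1a and Tat, with Tat at 0.981 of Mat1a per kb (0.497 to 1.89). In non-mitochondrial replicate 2 no order can be read from values of 0 to 3.

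The make-up of the summed normalised count was likewise alike. Alb made up 54.9% (51.9 to 57.8) of it in mitochondria replicate 1, 51.8% (42.6 to 60.9) in mitochondria replicate 2 and 61.8% in non-mitochondrial replicate 1. Apoa1 made up 18.2% (16.0 to 20.6), 12.8% (7.73 to 20.2) and 10.2%. For both genes the intervals of the 2 mitochondria libraries overlapped, although the sums were 9004 and 759. The other 6 genes each made up 1.57% to 6.84% in mitochondria replicate 1, 1.84% to 10.0% in mitochondria replicate 2 and 0.637% to 7.01% in non-mitochondrial replicate 1. In the libraries compared here, the amount of this signal thus differed far more than the shares of Alb and Apoa1. Non-mitochondrial replicate 2, with a sum of 8 units, was left out. Over 67 genes, these and the other hepatocyte genes described below, the Spearman correlation of levels was 0.609 between the mitochondria libraries. It was 0.689 and 0.711 for mitochondria replicates 1 and 2 with non-mitochondrial replicate 1, and 0.327 between the non-mitochondrial libraries.

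**Figure D2:**
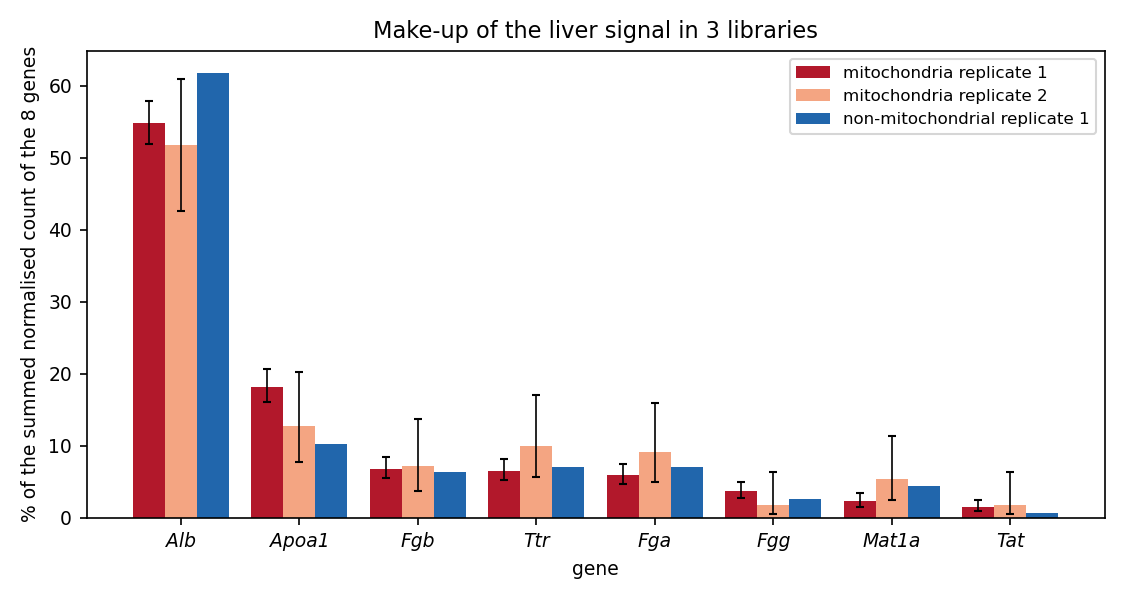
Share of each gene in the summed normalised count of the 8 liver transcripts (percent) in the 3 libraries with a sum above 100, 1 bar per library. Error bars are 95% Wilson intervals from recovered reads and stand on the mitochondria libraries alone, and Alb takes 51.8% to 61.8% in each library.

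Within each fraction the replicates were then set against each other. In mitochondria all 8 genes were higher in replicate 1, against 48% of the 8215 genes tested, those with a mean of 10 units or more, a filter that all 8 passed. In the non-mitochondrial fraction 7 were higher in replicate 1 and Tat was level, against 52% of the 8215 genes. Both held at once for 7 of the 8 genes and for 25.7% of all. The same 7 genes were at least 2 times higher in replicate 1 in both fractions, as were 3.03% of all genes tested, a rule that any value above 0 meets where replicate 2 is at 0, as it was for Fgg, Mat1a and Ttr. The genes were named with this pattern known, so that nothing further is read from the counts. The median log2 difference of replicate 1 minus replicate 2 was 3.35 in mitochondria and 2.73 in the non-mitochondrial fraction for the 8 genes, and 0.00 and 0.04 for all genes tested. The size factors of the authors centre the libraries on one another, which can by itself bring the median over all genes near 0.

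**Figure D3:**
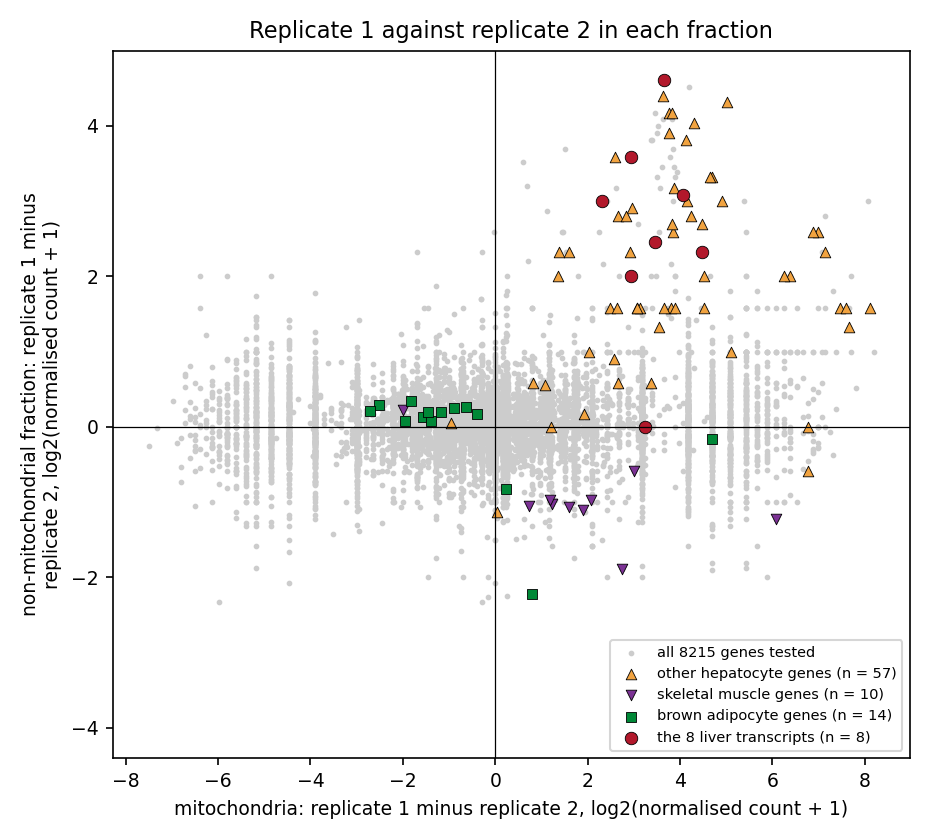
Difference of replicate 1 minus replicate 2 on the log2(normalised count + 1) scale in mitochondria (horizontal) and in the non-mitochondrial fraction (vertical), 1 symbol per gene, for all 8215 genes tested (grey) and for the marked lists. The liver transcripts and most other hepatocyte genes lie to the upper right, skeletal muscle genes mostly to the lower right and most brown adipocyte genes left of 0, and Tat lies on the horizontal line.

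Other hepatocyte genes, from 6 lists that share none of the 8 genes, followed the same order of libraries. Of 78 genes on these lists 59 were in the table, and their normalised counts summed to 22506 and 1971 in mitochondria and to 568 and 179 in the non-mitochondrial fraction. These are 5.92%, 0.512%, 0.0887% and 0.0285% of the named nuclear signal. The replicate ratio of the sums was 11.4 (10.1 to 13) in mitochondria, near the 11.9 of the 8 genes, and 3.17 in the non-mitochondrial fraction, against 19.6. Fah and Gys2, singled out after their values had been seen, gave most of the sum in non-mitochondrial replicate 2, and without them the sums of that fraction were 404 and 44, a ratio of 9.18, while that in mitochondria was 12.2. Replicate 1 was higher for 58 of the 59 genes in mitochondria, for 55 in the non-mitochondrial fraction and for 54 in both. The 5 others were Hal, Gys2, Abcb11, Slc27a5 and Baat. Where 4 values follow a gene below, they are mitochondria replicates 1 and 2 and then non-mitochondrial replicates 1 and 2. The lists were written with the liver pattern known and are no independent support for it.

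Plasma protein genes gave 61.8% and 56.8% of this sum in mitochondria and 43.0% and 13.4% of it in the non-mitochondrial fraction. Without Fah and Gys2 these shares were 62.3%, 61.0%, 60.4% and 54.5%. The 23 listed ones summed to 13914 and 1119 in mitochondria and to 244 and 24 in the non-mitochondrial fraction, and 23 of 23 were higher in replicate 1 of both. Serpina1e, an alpha-1-antitrypsin gene, was read at 2164, 159, 35 and 1, and its paralog Serpina1c at 1207, 97, 20 and 0. Genes of this family are near-identical, and reads that align to several places had been left out, so that their separate values are uncertain. Serpina3k, a serine protease inhibitor gene, was read at 1406, 62, 25 and 3, and Pzp, a broad protease inhibitor of plasma, at 1232, 83, 17 and 1.

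The apolipoprotein genes other than Apoa1 gave 3229, 166, 45 and 1 over 4 genes, all 4 higher in replicate 1 of both fractions. Apob, the structural protein of very-low-density lipoprotein, was read at 2322, 117, 32 and 1. Apoa2, a protein of high-density lipoprotein beside Apoa1, was read at 724, 28, 9 and 0. Apoc3 and Apoa5, which slow and speed the clearing of triglycerides, were read at 100, 7, 2 and 0 and at 83, 14, 2 and 0. For Apoc3 and Apoa5 the values in mitochondria replicate 2 are under the floor of 3 reads, and no order against the non-mitochondrial fraction is read from them.

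Enzymes of amino acid breakdown, the class of Tat and Mat1a, summed to 2399 and 319 in mitochondria and to 131 and 65 in the non-mitochondrial fraction over 13 listed genes, and 12 of 13 were higher in replicate 1 of both. Cps1, which starts the urea cycle, was read at 799, 55, 17 and 0. Tdo2, which opens the tryptophan ring, was read at 275, 0, 2 and 0, and Hpd, the enzyme after Tat in tyrosine breakdown, at 191, 21, 2 and 0. Fah, the last enzyme of the same route, was read at 117, 55, 81 and 55, and so it was well above Tat and Hpd in non-mitochondrial replicate 2. Fah alone gave 55 of the 65 units of the list in that library.

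Genes of sugar and bile acid metabolism were more mixed, with sums of 1132, 159, 105 and 85 over 8 genes and 4 of 8 higher in replicate 1 of both fractions. Slco1b2, a bile acid and drug transporter of the hepatocyte, was read at 266, 41, 6 and 0, and Fbp1, an enzyme of gluconeogenesis, at 200, 0, 4 and 1. Gys2, the liver form of glycogen synthase, was read at 42, 83, 83 and 80. Gys2 was the 1 hepatocyte gene on the lists that was lower in mitochondria replicate 1 than in replicate 2, on 5 and 12 reads. So few reads leave that order unsure, and Gys2 lay between 80 and 83 in the other 3 libraries.

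Genes of drug metabolism and conjugation summed to 1732, 208, 37 and 4, with 9 of 9 higher in replicate 1 of both fractions. Ces3a, a carboxylesterase, was read at 350, 48, 6 and 0, and Aox3, an aldehyde oxidase, at 300, 28, 5 and 3. Cyp3a11 and Cyp1a2, cytochromes P450 of the hepatocyte, were read at 266, 14, 7 and 0 and at 233, 76, 4 and 0. Among regulators of hepatocyte genes Hnf4a was read at 83, 0, 3 and 0 and Nr1i3, the receptor CAR, at 17, 0, 3 and 0. For Nr1i3 the value in mitochondria replicate 1 is below the floor of 3 reads.

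The 10 genes whose profile over the 4 libraries was nearest to the mean profile of the 8, among 2474 genes with a mean of at least 50, were Ces3a, Mup-ps17, Mup12, Slco1b2, Hpx, Pzp, Serpina1b, Pigr, Uox and Hpd. The distance was Euclidean on centred log2(normalised count + 1) values and ran from 0.474 for Ces3a to 0.779 for Hpd. Of the 8 genes, Fgb was nearest to their own mean profile (0.154) and Tat farthest (2.05). On the hepatocyte lists were 6 of the 10. Uox, the urate oxidase of liver peroxisomes, was read at 258, 41, 8 and 0, and Pigr, the receptor that carries immunoglobulin A across epithelia, at 399, 35, 3 and 0. A likeness over 4 libraries says no more than that the genes share the order of the libraries and the size of the steps between them.

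The major urinary proteins, which the mouse liver secretes into blood, were on no list and were examined after their values had been seen. Their 19 listed genes and pseudogenes summed to 21237 and 1769 in mitochondria and to 251 and 6 in the non-mitochondrial fraction, 5.59% and 0.459% of the size of the named nuclear signal in the first fraction and 0.0392% and 0.000954% in the second. Their replicate ratios were 12 and 41.8. Being near-identical in sequence, the single genes are uncertain. Under a rule also chosen after the values had been seen, replicate 1 at least 5 times replicate 2 in both fractions, 137 of the 8215 genes tested (1.67%) were found. Any value above 0 meets this rule against a value of 0, and in 113 of the 137 non-mitochondrial replicate 2 was at 0. They held 7 of the 8 genes, 40 of the 59 other hepatocyte genes, 19 of the 19 urinary protein genes and the 1 enterocyte gene Apoa4, and 70 of the 137 were in none of these groups. With replicate 2 above 0 in both fractions 20 genes were left, among them 4 of the 8, 7 hepatocyte genes and 6 urinary protein genes. Among the 70 were Fabp1, the fatty acid-binding protein of liver, at 1140, 76, 9 and 0, and Mug1, a plasma protease inhibitor of rodents, at 1024, 90, 14 and 0.

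Markers of other cells did not all follow this order. Of 11 genes of other liver cells 5 were listed, and they summed to 33 and 28 in mitochondria and to 3 and 8 in the non-mitochondrial fraction, which is 4 reads in each mitochondria library. Stab2, of the liver sinusoid, was read at 25, 14, 2 and 0, Sox9, of bile ducts, at 0, 14, 1 and 3, and Marco, of macrophages, at 8, 0, 0 and 2. The 4 reads on either side give a ratio of 1.18 with a counting interval from 0.225 to 6.47. Of 7 genes of enterocytes, which also make apolipoproteins, 1 was listed. It was Apoa4, at 233, 28, 1 and 0, a gene that mouse liver also transcribes. Genes of the choroid plexus, which also makes Ttr, of kidney and of pancreatic acini were looked for by 6, 6 and 9 names, and 0 of these are in the table used here.

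Genes of skeletal muscle, a tissue that borders brown fat in the body, were higher in replicate 1 of mitochondria for 9 of 10 genes but in replicate 1 of the non-mitochondrial fraction for 1 of 10, and for 0 of 10 in both. They summed to 3596 and 1084 in mitochondria and to 345 and 732 in the other fraction, replicate ratios of 3.32 (2.76 to 4.01) and 0.471. Myh4, a fast myosin heavy chain, was read at 1947, 518, 144 and 311, Atp2a1, the calcium pump of fast fibres, at 333, 110, 47 and 99, and Myh1, another fast myosin, at 391, 166, 28 and 58. Muscle genes and the 8 liver genes thus had their high replicate in common in mitochondria and not in the other fraction. Of 8 heart genes 2 were listed, Myh6, the myosin of atrium and ventricle, at 183, 531, 2 and 0, and Myl4, an atrial light chain, at 0, 14, 2 and 2. Myh6 had its high replicate opposite to the liver genes in mitochondria.

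Genes of red blood cells were higher in replicate 2 of both fractions for 4 of 5, with sums of 250, 635, 296 and 624. Hbb-bs, a beta globin, was read at 108, 186, 73 and 184, Hba-a1 and Hba-a2, both alpha globins of near-identical sequence, at 67, 159, 93 and 174 and at 50, 235, 80 and 155. The replicates with much liver signal were thus those with less globin signal. The part of blood, muscle or a shared origin of equally numbered libraries in the liver signal was not tested.

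**Figure D4:**
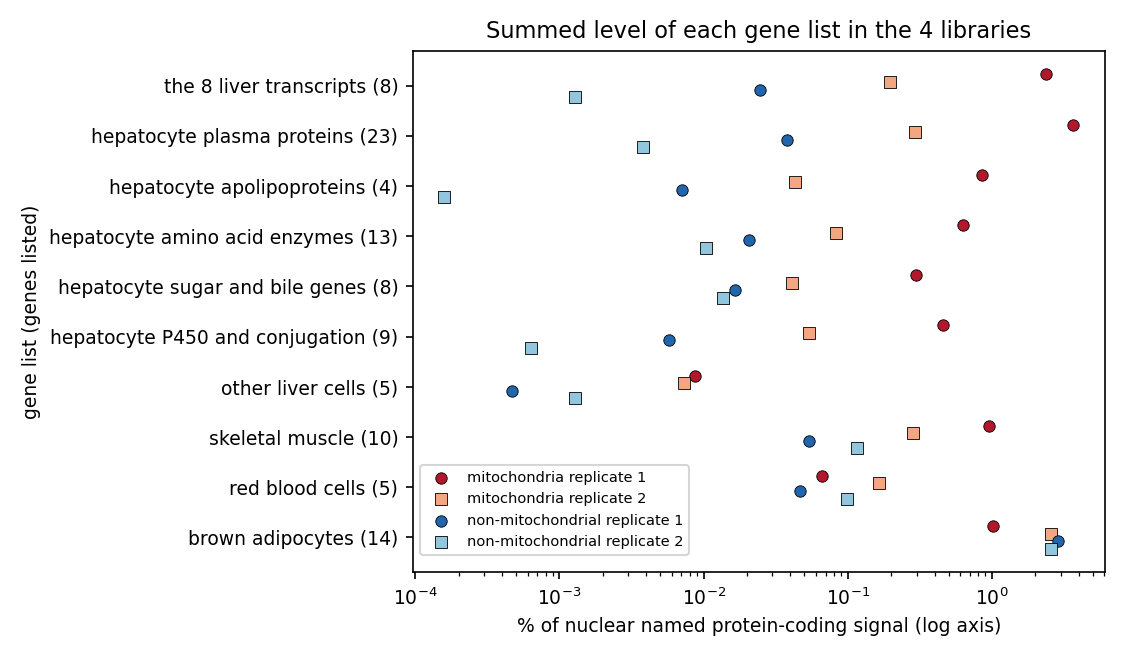
Summed normalised count of each gene list as a percentage of the named nuclear signal (log axis), 1 symbol per library, with the number of genes in the table in brackets. The liver and hepatocyte lists spread over the 4 libraries, by 2.37% to 0.00127% for the 8 liver transcripts, while brown adipocyte genes stay between 1.02% and 2.87%. Regulators are not drawn because their sum is 0 in 2 libraries.

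The 14 brown adipocyte genes summed to 3862 and 9896 in mitochondria and to 18345 and 16176 in the non-mitochondrial fraction, shares of 1.02%, 2.57%, 2.87% and 2.57%. In mitochondria 3 of 14 were higher in replicate 1, and the replicate ratio of the sums was 0.39 (0.351 to 0.434). Fabp4, the fatty acid-binding protein of adipocytes, was read at 957, 2823, 5208 and 4746, and Lpl, lipoprotein lipase, at 816, 1263, 3804 and 3176. Per kb of exon, Alb at 2111 stood above Ucp1 at 789 and Fabp4 at 213 in mitochondria replicate 1. In mitochondria replicate 2 Alb at 168 per kb stood below Ucp1 at 2172 and Fabp4 at 629, and in non-mitochondrial replicates 1 and 2 Alb was at 41.4 and 1.28 against 2946 and 2558 for Ucp1. In that 1 library of the 4, albumin mRNA was thus read more often per annotated exon base than the mRNA of the defining brown fat protein.

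Between the fractions, all 8 genes had both mitochondria libraries above both non-mitochondrial libraries, against 8.59% of all genes tested, a contrast known when the genes were named. For Fgg and Tat the lower mitochondria value is 2 reads, under the floor, so that their order is not firm and 6 of the 8 genes are left. In equally numbered libraries the sum of the 8 was 57.4 times higher in mitochondria for replicate 1 and 94.9 times for replicate 2, the latter against 8 units. As shares of named nuclear signal these ratios were 96.6 and 155. For single genes in replicate 1 the ratio ran from 29.7 for Mat1a to 141 for Tat, whose 1 unit in the non-mitochondrial fraction makes it unsure. For Fgg, Mat1a and Ttr, listed at 0 in non-mitochondrial replicate 2, no fold is given for that replicate.

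On the scale of log2(normalised count + 1), which understates changes of low genes, limma gave the 8 genes fold changes of mitochondria over the non-mitochondrial fraction from 4.53 to 6.14, with a median of 5.18. The median of all 8215 genes on this scale was -1.23. Alb had a fold change of 6.14 with an SE of 2.30, Apoa1 6.10 with 2.0, Ttr 5.95 with 1.83 and Fgb 5.31 with 1.68. Mat1a had 5.05 with 1.51, Fga 5.01 with 1.42, Fgg 4.98 with 1.98 and Tat 4.53 with 1.31. The standard errors thus ran from 1.31 to 2.30 on the log2 scale.

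At an adjusted p under 0.05 over all genes, limma called 66 genes higher in mitochondria (0.803%) and 362 lower (4.41%), among them 0 of the 8 genes, of which 6 had an unadjusted p under 0.05, as did 18.1% of all genes tested. Since this contrast was known when the 8 genes were named, nothing is read from their counts. The totals over all genes depended on the settings, and with the replicate number as a block limma called 0 genes higher and 0 lower. limma called 0 of the 57 other hepatocyte genes that passed the filter, with 22 at an unadjusted p under 0.05, the threshold that 18.1% of all genes passed. The median fold change of these 57 was 4.47, with Gys2 lowest at -0.46. Many of the 57 passed the filter through the mitochondria libraries alone, and their lists were written with the liver pattern known. Nothing is read from their count or their median. With edgeR on recovered reads, 135 genes were called higher (1.64%), among them 5 of the 8 (Alb, Fga, Fgb, Apoa1 and Ttr) and 15 of the 57. Nothing is read from the edgeR calls of the 8 and the 57 either, since these genes were named with the contrast known. Of the 14 brown adipocyte genes limma called 0, with 3 at an unadjusted p under 0.05, a share near the 18.1% of all genes, and edgeR called 2 lower, against 4.02% of all genes. Both mitochondria libraries lay below both others for 12 of the 14 and for 52.1% of all genes tested, and the median fold change of the 14 was -1.66 beside -1.23 for all genes.

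The direction between fractions depends, for replicate 1, on what the signal is set against. Named nuclear genes held 0.174% and 0.224% of all units in mitochondria, against 40.3% and 33.0% in the other fraction. As a share of all genes, those of the mitochondrial genome included, the 8 genes came to 0.00412% and 0.000441% in mitochondria and to 0.00987% and 0.000420% in the non-mitochondrial fraction. On that base replicate 1 of mitochondria lay below replicate 1 of the other fraction, while replicate 2 of mitochondria stayed just above its counterpart. For replicate 1 the library with more liver signal per nuclear mRNA was thus not the one with more per read. Replicate 1 stood above replicate 2 in both fractions on this base too.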

How the data were processed

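RNA of isolated mitochondria and of the non-mitochondrial fraction was sequenced from brown adipose tissue in 2 libraries each, grouped by the treatment label. Per the submitters' notes, reads were processed with Trimmomatic 0.39, STAR 2.7.10a, featureCounts 2.0.2 and DESeq2 1.30.1 on mm10. The methods of the study name other versions of the last 3 tools and state that reads of several places or genes were left out. The deposited table gives a signal, gene counts that the authors divided by size factors and rounded, for 17259 genes. In mitochondria the values rose in steps, and whole reads were recovered for 100% of them, each value lying within 0.5 units of a whole number of reads, with a method tested on simulated data. In the non-mitochondrial libraries the depth is unknown, with normalised totals of 1590096 and 1905303.

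The 8 genes and all gene lists were chosen with earlier results of these data known. Named were all 8 genes, the 4 highest genes of each hepatocyte list and the 3 highest of each other list by mean over the libraries, and the 10 nearest profiles. One gene that this rule names is not reported here. Named nuclear genes are protein-coding genes outside the mitochondrial genome whose symbol is not a Gm number or a Rik name. Genes with a mean of at least 10 were fitted with limma 3.58.1 in R 4.3.3 on log2(normalised count + 1), all 4 libraries, without trend, and p-values were adjusted by the Benjamini-Hochberg method over 8215 genes. edgeR 4.0.16 on recovered reads, with deposited values of the other fraction taken as reads, called 135 genes higher and 330 lower. Exon lengths came from GENCODE M21, where 17099 genes (99.1%) had the same coordinates. The fit was tested on simulated data.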

Additional observations from a re-analysis of the deposited data

How the results depend on the processing

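The order of the 4 libraries in the share of the 8 genes held against ribosomal protein genes and without Alb, and changed against all nuclear genes and against all genes. Set against cytosolic ribosomal protein genes the shares were 153%, 9.34%, 1.97% and 0.116% (mitochondria replicates 1 and 2, then the non-mitochondrial ones), and without Alb 1.07%, 0.0950%, 0.00937% and 0.000795%. Set against all nuclear genes they were 0.0866%, 0.00974%, 0.0202% and 0.00103%, and against all genes 0.00412%, 0.000441%, 0.00987% and 0.000420%. On both of these bases non-mitochondrial replicate 1 rose above mitochondria replicate 2, and on the last also above mitochondria replicate 1. The replicate ratio in mitochondria was 16.4 when scaled to ribosomal protein genes, and at most 12.7 otherwise. In the non-mitochondrial fraction it was 19.3 (named nuclear genes), 19.2 (median ratio), 17.1 (ribosomal protein genes) and 12 (without Alb). The 7 of 8 genes higher in replicate 1 of both fractions stayed 7 under each alternative, and the 54 other hepatocyte genes became 48 to 54, 48 when a difference of at least 2 units was asked for, a rule added after seeing the data like edgeR and the rule of 5 times.

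The median log2 fold change of the 8 genes kept its sign under each alternative, from 3.73 without mitochondria replicate 1 to 7.13 without replicate 2 of that fraction, with 3.74 at a pseudocount of 10. Without non-mitochondrial replicate 1 or 2 it was 6.54 or 4.04. Counts of calls over all genes did not hold. Of genes called higher, 66 in the fit reported, no filter on low values gave 143 and edgeR 135, and leaving out 1 library gave 0 (each non-mitochondrial library) to 622 (mitochondria replicate 2). Of genes called lower, 362 in the fit reported, a pseudocount of 10 gave 1, no filter 3587, a mean of at least 50 gave 11 and leaving out 1 library 0 to 3864. Leaving out a library assumes that the lone library of its group varies like the others. The median of all genes was -1.23, or -0.56 when scaled to named nuclear genes. What caused these changes was not tested. The replicate block left 0 calls higher and 0 lower in limma, against 944 genes at an unadjusted p under 0.05, and the median of the 8 genes stayed 5.18. The labels state no pairing, so that equal numbers may mark no pair. The replicate differences of the fractions correlated at 0.112 over 8215 genes. With few reads per gene in mitochondria, counting noise can by itself hold this value low, and it cannot decide on pairing. Depth limits the mitochondria libraries to 45662 and 55686 reads of named nuclear genes.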
